A study of Mus musculus with 2 samples.

Results

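The SR proteins Srsf1, Srsf2, Srsf3, Srsf5, Srsf6 and Srsf7, the related splicing regulators Tra2a and Tra2b, and the kinases Clk1 and Clk4 were followed as 1 set of splicing factors and the enzymes that phosphorylate them. The 10 genes were found by symbol among the 23157 genes of the deposited table, and they hold 62 of its 64053 transcripts. RNA was measured in distal forelimbs of C57Bl6CBAF1 mouse embryos at E12.5, the stage at which the digits form. There was 1 wild-type library and 1 library of embryos homozygous for HoxD Inv(TpSB1-Itga6), a 2.4-Mb inversion on chromosome 2 that carries the distal regulatory islands I and II, a portion of the landscape beside the HoxD cluster, away from it. The design text gives 3 pairs of forelimbs as the source of the RNA, without saying whether per library, and the libraries were read from poly(A)-selected, stranded cDNA as 100-bp single-end reads. With 1 library per genotype the differences given here have no replicate check: each compares 2 libraries, and the genotype cannot be told apart from anything else that differed between the libraries. Srsf6 is the only member on chromosome 2, and in GRCm38 it starts 88.3 Mb beyond Hoxd13 and 91.1 Mb beyond Itga6.

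SR proteins carry a domain rich in arginine and serine, bind short enhancer sequences in exons and help the spliceosome to recognise the neighbouring splice sites. Their activity and their place in the nucleus depend on phosphorylation of that domain, by SRPK kinases mainly in the cytoplasm and by CLK kinases in the nucleus. Many of these genes keep their own protein level steady by making a second kind of transcript, which holds an intron or a "poison" exon with an early stop codon and is kept in the nucleus or degraded by nonsense-mediated decay. Clk1 and Clk4 are the best known case of the first kind: much of their polyadenylated RNA holds the introns on either side of a cassette exon that the kinase needs, stays in the nucleus, and can be spliced on demand.

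The sequences below are ends of some of the introns that transcripts with large differences hold unspliced. They are shown because the differences between the libraries lay mainly in retained-intron transcripts. Other introns of the same transcripts are not shown, and some transcripts with differences as large hold no whole coding intron. Each sequence is a 30-base stretch, 5′ to 3′ on the gene's own strand. It was read from GENCODE M21 transcripts (GRCm38) through the transcript identifiers of the table. In the 5′ splice sites the capitals mark the last 3 bases of the exon and the first 6 of the intron, the stretch that pairs with U1 RNA. In the 3′ splice sites they mark the AG that ends the intron.

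Clk1 intron 3, 5′ splice site: caccattcacacGGGGTATGAgtgcctttt
Clk1 intron 3, 3′ splice site: ggtgccgcccacttgacgtgtccAGaagag
Clk4 first held intron, 5′ splice site: catcagtcgcatTCGGTATGAgtggtttgt
Clk4 first held intron, 3′ splice site: tggtgctgcccacttgccgttccAGaagag
Clk1 intron 4, 5′ splice site: tactaagtgcaaGATGTATAGaatattttt
Clk4 second held intron, 5′ splice site: ttctaagagcaaGATGTATAGaatattttt
Clk4 second held intron, 3′ splice site: cctctctttctctcccttactttAGatgaa
Srsf3 intron 3, 5′ splice site: tccacctcggcgCAGGTACTTgagagagca
Srsf3 intron 4, 5′ splice site: ccgaagccggagCAGGTAAATgttttggtg
Srsf5 intron 5, 5′ splice site: agagtcagctggCAGGTTTGTtgaaataca
Srsf5 intron 5, 3′ splice site: cttaacataattgtcttgtgttaAGgatct

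The paired Clk1 and Clk4 introns lie on either side of an exon of 91 nt in both genes, at chr1:58420121-58420211 on the minus strand for Clk1 and at chr11:51273078-51273168 on the plus strand for Clk4. The introns before it were 871 nt in Clk1 and 1055 nt in Clk4, and those after it 387 and 391 nt. Compared position by position, without gaps, the 5′ splice-site windows of the second pair shared 28 of 30 bases and those of the first pair 21 of 30. The 3′ windows shared 16 of 30 in the first pair and 16 of 30 in the second. These counts leave out bases that are alike only after a shift. The members' retained-intron transcripts held 16 distinct whole introns with GT and AG ends, 1 of which, in Clk4, spans the pair just named and its exon. Their median length was 392 nt against 245 nt for the 3552 such introns of all genes, and their median GC content was 36.7% against 51.8%. Compared with the 9 letters CAGGTAAGT, which pair fully with U1, the median 5′ splice site matched at 6 letters in both sets, and 7 or more letters matched in 5 of the members' 16 introns, or 31.2%, and in 35.4% of all. These matches describe letters and are not a measure of splice-site use.

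Counts reached the table as reads divided by a size factor per library, here called normalized reads. 1 read was worth 1.01 normalized reads in the wild type and 0.988 in the inversion. The libraries held 9280660 and 9466154 reads assigned to transcripts. A fold change is given as the log2 of the inversion value over the wild-type value, with 1 normalized read added to each. Its 95% interval is the exact binomial (Clopper-Pearson) interval of the inversion's share of the reads and covers counting error alone. The labelled tissue had its markers: all 9 distal limb mesenchyme genes were read at 791 normalized reads or more in both libraries, and their sum was 15142 in the wild type and 13075 in the inversion (7 of 9 lower). Hoxd12 and Hoxd13, which lie in the cluster beside the inversion, made up most of that difference, and the other 7 summed to 11213 and 10671. Other lists also differed. Muscle markers summed to 1104 and 2139, with 7 of 8 higher in the inversion. Red-cell markers summed to 27673 and 23741, with 0 of 6 higher, and neuronal markers to 324 and 383. None of these lists had a defining marker at 0 in either library. The nuclear RNAs Malat1, Neat1 and Meg3 were each at least 2-fold higher in the inversion, at log2 ratios of 1.03, 1.05 and 2.08. The 4 Y-linked genes summed to 836 and 2785 normalized reads, and Xist, which is read from the inactive X chromosome of females, had 2640 and 12.8. Heat- and cold-shock genes, which respond to handling, summed to 4130 and 4754, with 5 of 7 higher. Rbm3 (310 and 764) and Hspa8 (121 and 245) were 2-fold higher, while Hsph1 (1762 and 1649) and Dnajb1 (871 and 771) were lower. Immediate early genes summed to 814 and 736, with 3 of 6 higher. The part of any of these differences in the results below was not tested. In whole tissue, fewer cells of a type and less RNA per cell cannot be told apart.

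At the level of whole genes, both kinases and 2 of the 6 SR proteins were higher in the inversion by 1.5-fold or more, and no member was lower by 2-fold. Clk1, a kinase that phosphorylates SR proteins in the nucleus, was at 625 normalized reads in the wild type and 1263 in the inversion, a log2 ratio of 1.01 (1279 reads against 617; interval 0.88 to 1.16). Its close relative Clk4 was at 555 and 1110, a log2 ratio of 0.999 (1124 reads against 548; 0.85 to 1.15). Srsf5, an SR protein first found as a gene induced in regenerating liver, was at 719 and 1186, a log2 ratio of 0.72 (0.59 to 0.86). Srsf3, the smallest SR protein, which also couples splicing to mRNA export, was at 951 and 1436, a log2 ratio of 0.59 (0.48 to 0.71). These 4 genes stood apart from the other 6, which lay within 0.19 of no difference.

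Srsf6 was at 2269 and 2590 normalized reads (log2 ratio 0.19, 0.11 to 0.27), and Srsf2, which binds exonic enhancers and acts in transcription elongation as well, at 2366 and 2565 (0.12, 0.03 to 0.20). Srsf1, the founding SR protein, was at 3719 and 3592 (-0.05, -0.12 to 0.02). Srsf7, an SR protein with a zinc knuckle that acts in mRNA export, was at 1448 and 1433 (-0.02, -0.12 to 0.09). Counting error covered the difference for both. The same held for the Tra2 proteins, which bind GAA-rich enhancers: Tra2a was at 1527 and 1540 (0.01, -0.09 to 0.11) and Tra2b at 341 and 366 (0.10, -0.11 to 0.32).

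Against all genes, 1 of 10 members reached 2-fold, Clk1, while Clk4 stood just under the threshold. Of the 16756 genes that averaged 10 normalized reads or more over the libraries, 3.99% were 2-fold higher or more. At 1.5-fold, 4 of 10 members were higher, against 9.41% of all genes. The members' median log2 ratio was 0.15 and that of all genes -0.02. An exact binomial test on the reads was two-sided and adjusted by the Benjamini-Hochberg method over all 16756 genes. By it 6 members had more reads in the inversion library (Clk1, Clk4, Srsf2, Srsf3, Srsf5 and Srsf6), where 12.1% of all genes did. Fewer reads were found for 0 of 10 members, and for 1293 of the 16756 genes. That test compares these 2 libraries and not the genotypes.

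**Figure D1:**
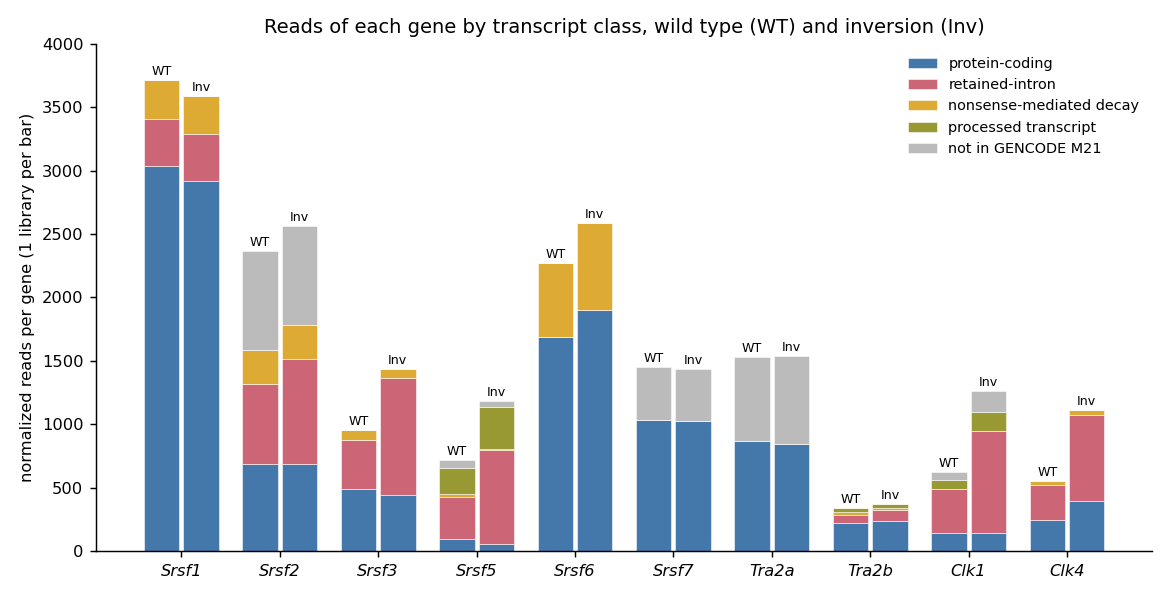
Normalized reads of each of the 10 genes in the wild-type (WT) and inversion (Inv) library, with each bar divided by the annotated class of the transcripts. In Clk1, Clk4, Srsf3 and Srsf5 the added height of the inversion bar lies mainly in retained-intron transcripts, which for Srsf3 went from 382 to 930 normalized reads.

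Per kilobase of transcript, over transcripts matched to GENCODE M21, the wild-type order was Srsf1 (1925 normalized reads per kb), Srsf6 (1246), Srsf2 (908), Srsf5 (529), Clk4 (510), Tra2a (482), Srsf7 (450), Clk1 (399), Srsf3 (367) and Tra2b (194). Without replicates the spread between neighbours in this order is unknown. Each value is a sum over a gene's transcripts, so it also depends on how many are listed and how reads were divided among them. Single Srsf1 transcripts were at 207 to 335 per kb in the wild type. Those values are below Tra2a and Srsf7, which each rest on a single matched transcript. In the inversion Clk4 (941), Srsf5 (763), Clk1 (703) and Srsf3 (531) all stood above Tra2a (469) and Srsf7 (447). These values leave out transcripts that GENCODE M21 does not hold, which took 45.2% of the inversion reads of Tra2a, 30.3% of Srsf2, 28.6% of Srsf7, 13.1% of Clk1 and 4.16% of Srsf5, so the order rests on unequal shares of the genes' reads. On annotated coding transcripts alone the picture was another: Srsf5 was the lowest gene in both libraries, at 60.0 and 38.2 per kb, and Clk1 was next, at 77.8 and 77.5. These places also leave out the transcripts outside GENCODE M21. For Srsf5 those had 61.8 and 49.4 normalized reads, beside 92.1 and 58.3 in coding transcripts. For Clk1 they had 61.8 and 166, beside 140 and 139.

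The 62 transcripts comprised 17 annotated as protein-coding, 24 as retained-intron, 9 as targets of nonsense-mediated decay, 6 as processed transcripts and 6 that GENCODE M21 does not hold. Summed over the members, retained-intron transcripts went from 2395 to 4428 normalized reads, and from 16.5% to 25.9% of the members' reads. Protein-coding transcripts were at 8509 and 8634, and their share was 58.6% and 50.5%. Decay transcripts were at 1316 and 1413. Over all genes the retained-intron share was 5.99% and 7.12%, so the class as a whole was also higher in the inversion library, by a log2 ratio of 0.24 against 0.89 for the members.

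In Srsf3 and Srsf5 the retained-intron sums were higher while the coding sums were not. Srsf3 had 491 and 438 normalized reads in its coding transcript (log2 ratio -0.17, -0.36 to 0.02) and 382 and 930 in its retained-intron transcripts (1.28, 1.11 to 1.46). The retained-intron share of Srsf3 reads was 40.1% in the wild type and 64.8% in the inversion. Srsf5 had 92.1 and 58.3 in coding transcripts (-0.65, -1.16 to -0.17) and 331 and 735 in retained-intron transcripts (1.15, 0.96 to 1.34), with retained-intron shares of 46.1% and 61.9%. The coding sum of Srsf5 includes Srsf5-205, with 22 and 0 reads. Its other coding transcript, Srsf5-201, was at 69.9 and 58.3 (-0.26, -0.79 to 0.26). The Srsf5 decay transcript had 22 and 14 reads. In both genes, then, the higher gene total in the inversion came with no more reads assigned to annotated coding transcripts. How reads that fit transcripts of both classes were divided is not given in the sources used here.

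For Clk1 the coding value depended on how 1 transcript was classed, and for Clk4 it did not. Clk1 had 140 and 139 normalized reads in its coding transcript (-0.01, -0.35 to 0.34) against 351 and 807 in retained-intron transcripts (1.20, 1.02 to 1.38). Clk4 was higher in both classes, at 245 and 396 in coding transcripts (0.69, 0.46 to 0.93) and 276 and 673 in retained-intron transcripts (1.28, 1.08 to 1.49). The Clk4 decay transcripts were at 33.4 and 41.5. Clk4 was thus the one member whose annotated coding sum was higher by 1.5-fold. With the Clk1 transcript outside GENCODE M21 counted as coding, the Clk1 coding sum was 202 and 305 (0.60, 0.34 to 0.86), also past 1.5-fold and within the Clk4 interval.

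Srsf2 was the remaining SR gene with a difference in the class. Its retained-intron transcript was at 629 and 828 (0.40, 0.24 to 0.55), its coding transcript at 690 and 686, and its decay transcript at 264 and 273. Srsf1 was level in each class, at 3041 and 2917 in coding, 367 and 370 in retained-intron and 312 and 304 in decay transcripts. Srsf6 has no retained-intron transcript in the table, and its coding sum (1691 and 1899) and its decay transcript (578 and 691) were both a little higher. Tra2b had 58.7 and 85.9 in retained-intron transcripts (0.54, 0.05 to 1.05) and 222 and 234 in coding ones. For Srsf7 and Tra2a the table lists 1 coding transcript and 1 that GENCODE M21 does not hold: Srsf7 had 1030 and 1023 in the first and 418 and 410 in the second, and Tra2a 868 and 843, and 659 and 696.

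**Figure D2:**
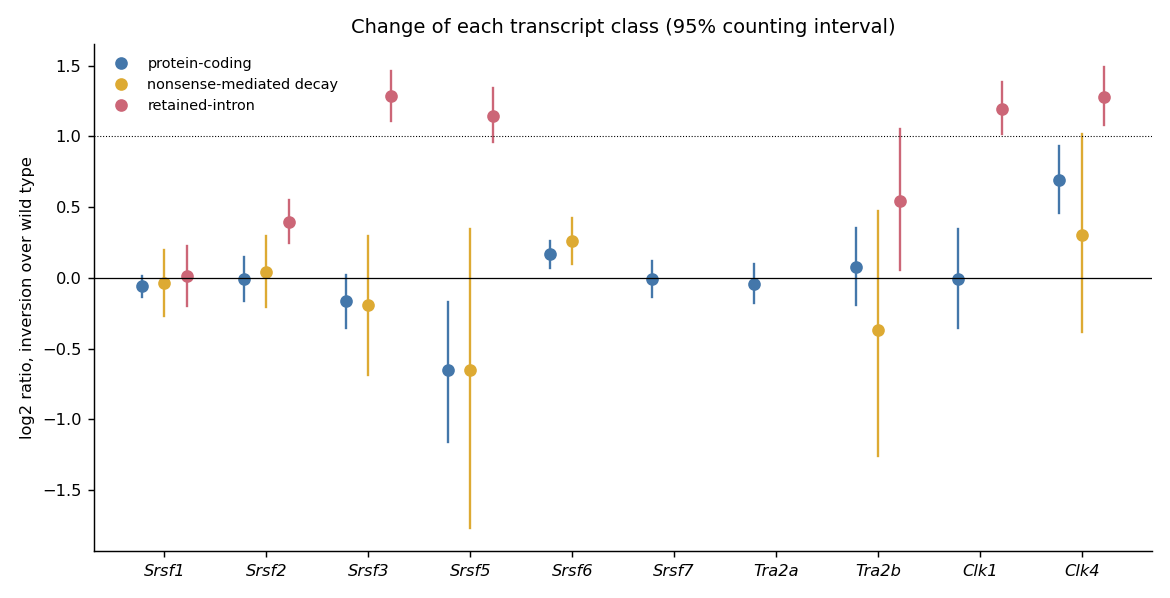
Log2 ratio (inversion over wild type) for each member, by transcript class, with 95% intervals that cover counting error alone. Retained-intron transcripts lie at 1.15 to 1.28 for Clk1, Clk4, Srsf3 and Srsf5, whereas the coding class lies at or below 0 for 3 of these and at 0.69 for Clk4.

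The difference between classes within a gene, taken as the log2 ratio of retained-intron plus decay transcripts minus that of coding transcripts, hardly depends on the scaling of the libraries. It could be computed for the 8 members with both classes and for 4158 genes in all. It was 1.73 for Srsf5 (interval of the odds ratio 1.22 to 2.28), 1.28 for Srsf3 (1.04 to 1.54), 1.20 for Clk1 (0.81 to 1.60), 0.51 for Clk4 (0.20 to 0.82) and 0.31 for Srsf2 (0.11 to 0.51). For Tra2b (0.23, -0.28 to 0.74), Srsf6 (0.09, -0.10 to 0.28) and Srsf1 (0.05, -0.12 to 0.22) the interval held 0. Thus 3 of 8 members reached a difference of 2-fold, against 7.29% of all genes with both classes. With transcripts outside GENCODE M21 counted as coding, a choice made after seeing the data, Clk1 was at 0.60, and 2 of 8 members reached 2-fold, Srsf3 and Srsf5, against 6.89% of all genes. With a mean of at least 100 in each class, which Srsf5 does not pass, 2 of 6 did, Clk1 and Srsf3, against 3.40% of all genes. With decay transcripts alone set against coding ones, 0 of 7 did, against 4.95% of all genes. The members' median was 0.41 and that of all genes 0.14, and 8 of 8 members lay above 0, as did 70.1% of all genes. Srsf5 exceeded 98.1% of those genes, Srsf3 95.6% and Clk4 80.4%, with Clk1 next below Srsf3. That order depended on transcripts without reads in 1 library. With them left out, also a choice made after seeing the data, Srsf5 was at 1.199, Clk1 at 1.202 and Srsf3 at 1.284.

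**Figure D3:**
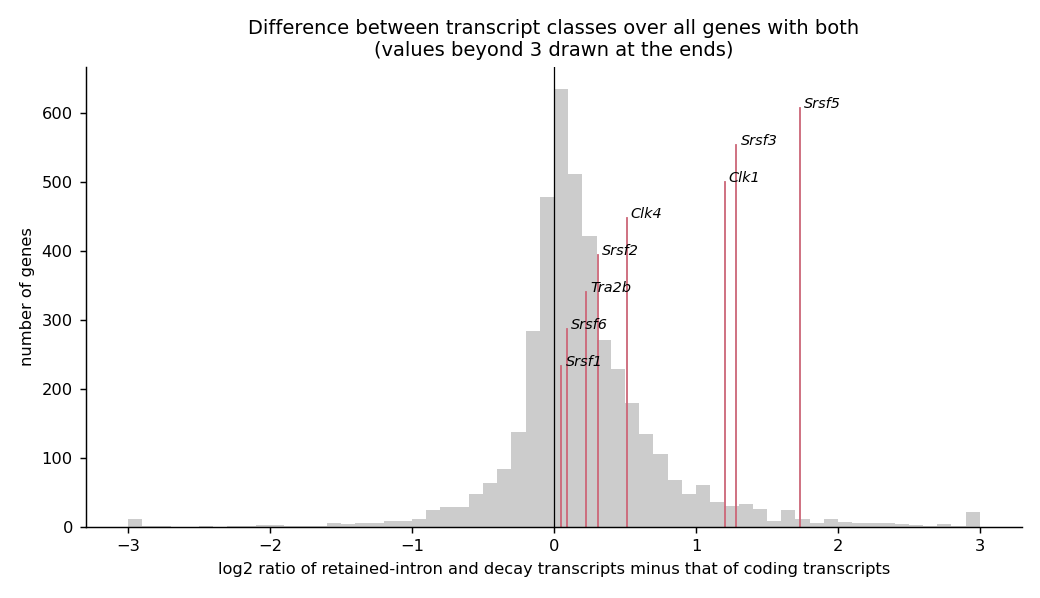
Distribution over 4158 genes of the log2 ratio of retained-intron and decay transcripts minus that of coding transcripts, with the 8 members marked by lines whose height has no meaning. The bulk of genes centres on 0.14, and Clk1, Srsf3 and Srsf5 lie above 1 in the right tail.

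Among single transcripts, 9 of the 23 retained-intron transcripts of the members that averaged 10 normalized reads or more were 2-fold higher or more in the inversion, against 13.6% of 7715 such transcripts in all genes. None was 2-fold lower, where 70 of the 7715 in all genes were. Higher values were found for 22 of 23, and for 5319 of the 7715. The median log2 ratio was 0.83 against 0.20. The 9 transcripts were all of Clk1, Clk4, Srsf3 and Srsf5, and most of the 23 were of Clk1 and Clk4. Transcripts of the same gene can share reads, so they are not independent observations. Of the members' coding transcripts 1 of 17 was 2-fold higher (4.14% of all) and 1 was 2-fold lower (2.47% of all), with a median of -0.01. Of the decay transcripts 0 of 8 was 2-fold higher (6.96% of all), and their median was -0.02. Of the processed transcripts 2 of 6 were (8.23% of all), Clk1-203 at 45.6 and 100.7 and Srsf5-206 at 102 and 214. Of those outside GENCODE M21 1 of 6 was (6.37% of all), a Clk1 transcript at 61.8 and 166.

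Long intron-holding transcripts carried much of the difference. Clk1-204, of 3191 nt, holds introns 3 and 4 shown above and a further one of 87 nt, and went from 132 to 384 normalized reads (log2 ratio 1.54, 1.26 to 1.84). Clk4-213, of 3543 nt, holds both introns around the matching exon and went from 129 to 379 (1.55, 1.27 to 1.86). These 2 transcripts, from different genes on chromosomes 1 and 11, were close in level in each library. Clk1 and Clk4 transcripts share no stretch of 100 identical bases, the length of a read. Whether reads with mismatches were assigned across the 2 genes was not tested. Clk1-212, which also holds introns 3 and 4 and is 4865 nt long, was at 90.1 and 156, a lower ratio (0.79) than that of Clk1-204, and Clk1-202 was at 42.5 and 135 (1.65). The shorter Clk4-207 was at 33.4 and 92.8 (1.45) and Clk4-209 at 17.2 and 36.5 (1.04). Clk1-202, Clk4-207 and Clk4-209 hold no whole coding intron. The coding transcripts Clk4-202 and Clk4-203 were equal in the wild type, at 119 reads each, and stood at 193 and 185 normalized reads in the inversion. The third coding transcript, Clk4-205, had 4 and 19 reads, and the decay transcript Clk4-204 had 5 and 0. Of the Clk4 coding transcripts in the table, Clk4-205 alone has both introns around the 91-nt exon. Clk4-203 has instead an intron of 1537 nt that spans them and the exon, and Clk4-202 has neither of them. The Clk4 coding sum thus came mostly from transcripts without these introns.

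Srsf3-204, of 4010 nt, holds introns 3 and 4 of Srsf3, at chr17:29038625-29040774 and chr17:29040814-29041206, which lie on either side of a short coding exon. In the annotation, intron 3 also contains the exon that the decay transcript Srsf3-201 adds. It went from 314 to 805 normalized reads (1.36, 1.17 to 1.55), and the inversion's 805 exceeded the 438 of the coding transcript. Srsf3-203 was at 59.7 and 120, on the 2-fold threshold. Srsf3-201, the decay transcript, was at 78.0 and 68.1.

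In Srsf5, intron 5 at chr12:80947866-80949094, of 1229 nt, is held by 3 transcripts. Srsf5-207, of 2919 nt, was at 155 and 351 (1.17, 0.90 to 1.46), and Srsf5-209, of 3482 nt, at 176 and 315 (0.83). Srsf5-212 had 70 reads in the inversion and 0 in the wild type, at least 22.8-fold higher when 3 reads are taken as the floor in the wild type. The coding Srsf5-205 went the other way, with 22 reads and 0, at least 7.52-fold lower on the same floor in the inversion, while Srsf5-201, the main coding transcript, was at 69.9 and 58.3. How reads that overlap several of these transcripts were assigned is not given in the sources used here, and its part in the values without a read was not tested.

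**Figure D4:**
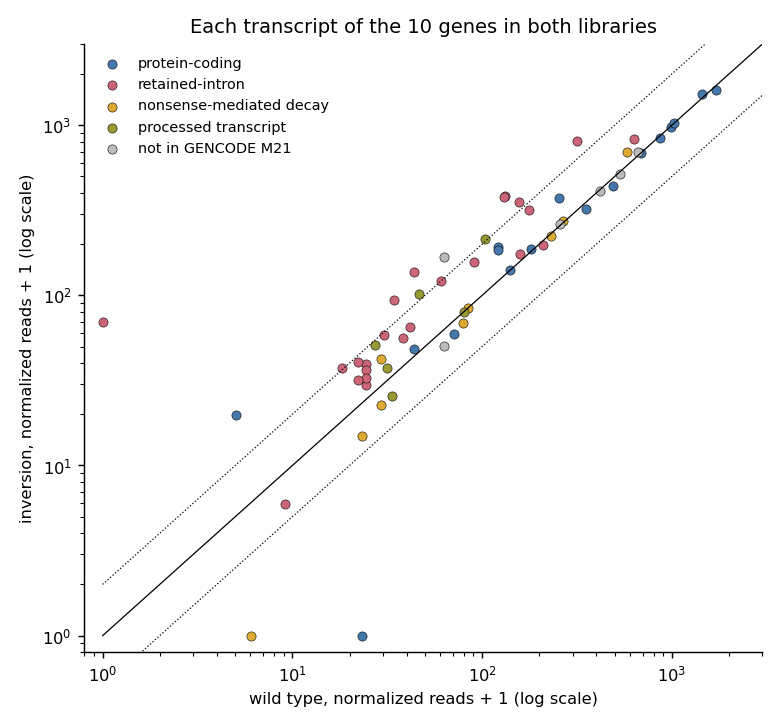
Normalized reads plus 1 of the members' 62 transcripts in the inversion (vertical axis, log scale) against the wild type (horizontal axis, log scale), coloured by class, with a solid line at equality and dotted lines at 2-fold. Points of 9 retained-intron transcripts lie on or above the upper dotted line, and most coding transcripts lie along the line of equality.

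The Srsf2 transcript with the held intron, Srsf2-203, retains intron 2 of 2 (chr11:116850962-116852020, 1059 nt). Over the members, the 11 retained-intron transcripts that hold a whole intron of a coding transcript had 1895 and 3588 normalized reads and a median log2 ratio of 0.86. The 12 that hold none had 492 and 835 and a median of 0.65. At 2-fold there were 5 of the 11 and 4 of the 12. Over all genes 13.6% of retained-intron transcripts were 2-fold higher, with a median log2 ratio of 0.20. A share over all genes for each of these kinds is not given here.

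Some of these values are uncertain for reasons of sequence. Of the 100-base stretches in the transcripts of Srsf3, 6.10% also occur in the annotated genes Gm12355, Gm9761 or AC141429.1. For Srsf5 the share was 5.46%, with Gm12966, and for Tra2b 4.51%, with Gm10254 and Gm14639. The other members shared none. Exons of Srsf2 overlap Mettl23 by 460 bases and Mfsd11 by 288 bases on the opposite strand, and those of Srsf1 overlap Gm11508 by 98 bases, also on the opposite strand. Clk4 overlaps Gm25082 by 59 bases on the same strand, where strand cannot separate the reads. Whether reads were counted by strand is not given in the sources used here.

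The other genes of the pathway were followed in 6 lists that held 84 genes, all of which passed the same minimum. At the gene level 4 of the 84 were 2-fold higher, 0 were 2-fold lower, and the median log2 ratio was 0.01, so the share was near the 3.99% of all genes. The 4 genes were Pnisr, an SR-related protein listed as Sfrs18, at 1130 and 2491 normalized reads (1.14, 1.04 to 1.24), Srpk3, an SR protein kinase of muscle, with 11 and 42 reads, Hnrnpa1, a splicing repressor, at 65.8 and 172 normalized reads, and Snrpc, a U1 protein, at 35.4 and 96.8. Srpk3 was higher beside the muscle markers given above.

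Of the 39 retained-intron transcripts of the other SR and SR-related genes 15 were 2-fold higher, where 13.6% of all such transcripts were, and the median log2 ratio was 0.52, while 1 of the 18 genes, Pnisr, reached 2-fold as a whole and the gene ratios lay between -0.17 and 1.14. The difference between classes reached 2-fold in 2 of 9, where 7.29% of all genes did: Son (1.11), a large SR-related protein of nuclear speckles, and Srrm1 (1.02), an SR-related coactivator. It ranged down to -0.89 in Luc7l3, a U1-associated protein with 1358 and 2014 normalized reads in coding and 370 and 296 in retained-intron and decay transcripts, and was -0.53 in Rsrc1, with 22.3 and 14.8 in the latter. Among the kinases and phosphatases that act on SR proteins, 5 of 12 retained-intron transcripts were 2-fold higher, with a median of 0.80, and 1 of 5 genes reached a 2-fold difference between classes, Ppp1cc. Clk2 was at 702 and 1095 normalized reads as a gene (0.64), and its difference between classes was 0.61. Clk3 had a gene log2 ratio of 0.05. Ppp1cc, a phosphatase subunit, had a difference between classes of 1.10.

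The hnRNP proteins, which often act against SR proteins, had 2 of 23 retained-intron transcripts at 2-fold, beside 13.6% of all, and a median of 0.14. Of 8 hnRNP genes with both classes 1 reached a 2-fold difference between them, where 7.29% of all genes did: Hnrnpl, with 1640 and 677 normalized reads in coding transcripts and 1050 and 1660 in retained-intron and decay transcripts, a difference between classes of 1.93. Core spliceosome genes had 1 of 22 retained-intron transcripts at 2-fold, beside the same 13.6%, and a median of 0.11. A 2-fold difference between classes was reached in 0 of 9 of these genes, beside 7.29% of all genes. Whether these counts differ from the shares of all was not tested. The median difference between classes was 0.57 over 9 other SR and SR-related genes, 0.24 over 5 kinases and phosphatases, 0.22 over 9 core spliceosome genes and 0.07 over 8 hnRNP genes, beside 0.14 over all genes. The 12 nonsense-mediated decay factors had a median gene ratio of 0.00 and the 2 SR import factors one of -0.07, with 0 of either at 2-fold.

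**Figure D5:**
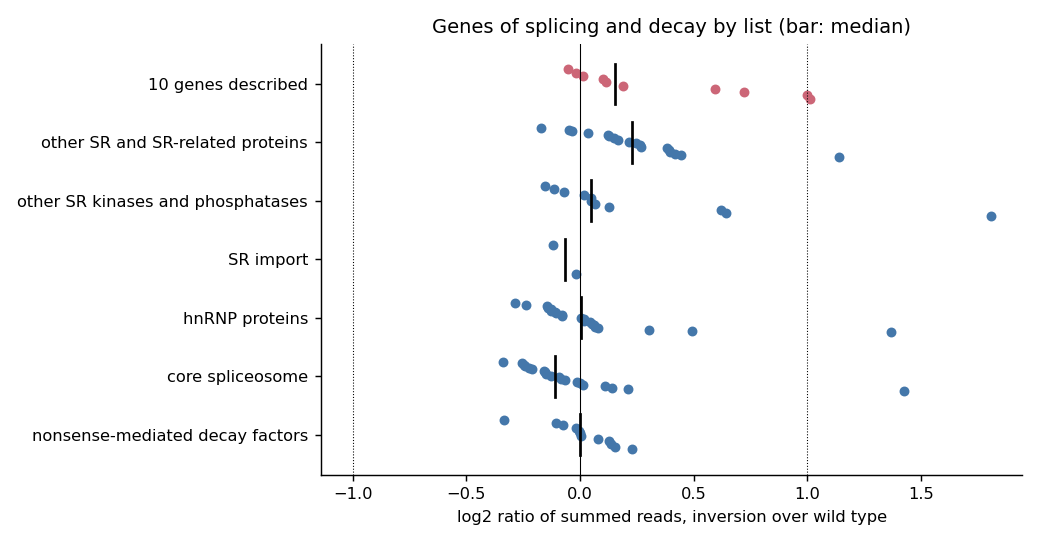
Log2 ratio (inversion over wild type) of the summed reads of each gene (points) for the 10 members and the 6 related lists, with a bar at each median and dotted lines at 2-fold. The medians of the related lists lie between -0.11 for the core spliceosome and 0.23 for the other SR and SR-related proteins, and Pnisr, Srpk3, Snrpc and Hnrnpa1 lie beyond 2-fold.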

How the data were processed

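The authors prepared poly(A)-selected, stranded libraries, mapped the reads to NCBIM37 (mm9; Bowtie2 is named in the submitters' processing notes) and counted them per transcript in the HTSstation pipeline. How reads that fit several transcripts were assigned, and whether strand was used, is not given in the sources used here. The deposited values, a signal per transcript, are reads divided by a size factor per library. The methods name RPKM, but 100% of the deposited values were whole multiples of 1 read within 0.1, so reads were recovered from them. The authors' columns of fold change (ratio), log2 fold change, p-value and adjusted p-value were not used.

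Transcripts were summed by gene and by GENCODE M21 class, which covered 88.1% of transcript identifiers. GENCODE coordinates and sequences are of GRCm38, another build than the mapping, and no coordinate was converted. A pseudocount of 1, a minimum mean of 10 normalized reads and a 2-fold threshold were used, with no test between genotypes. The members, the lists of related genes and the marker lists were chosen with earlier results of these data known. The rule named the 10 members, their transcripts with a mean of at least 10 (the largest differences are given singly, the others by counts and medians) and related genes at 2-fold in either measure, while Clk2, Clk3, Luc7l3, Rsrc1, Clk4-204 and the medians of lists were added after the values were seen. Of the related genes, Pnisr, Hnrnpdl and Hnrnpll stand in the table under the older symbols Sfrs18, Hnrpdl and Hnrpll and were matched through RefSeq synonyms. Scripts in Python 3.11.15, with scipy 1.17.1, pandas 2.3.3, numpy 2.4.6 and matplotlib 3.10.9, were tested on simulated data.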

Additional observations from a re-analysis of the deposited data

How the results depend on the processing

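No paired analysis was possible because each genotype had 1 library. Depth, at 9280660 and 9466154 reads, limits transcripts with few reads, and 5133 and 3181 transcripts had none. The number of members at 2-fold (1) was 2 with scaling by total reads or a pseudocount of 0.1, 0 with upper-quartile scaling, with protein-coding transcripts alone or at 4-fold, 4 at 1.5-fold or with each gene's transcript of highest mean, and 6 by the exact binomial test, chosen after seeing the data. Clk1 and Clk4 both lie at 2-fold, so scaling moves them across it. With protein-coding transcripts alone the log2 ratio of Srsf5 changed sign to -0.65, with an interval below 0. Those of Srsf2 (-0.0067), Srsf3 (-0.17) and Clk1 (-0.0050) also changed sign, but their intervals held 0. The members' median with these transcripts was -0.0080. With decay transcripts alone 0 of 7 members reached a 2-fold difference between classes (3 of 8 otherwise), where 4.95% of all genes did. The difference changed sign to -0.39 for Clk4, -0.025 for Srsf3 and -0.45 for Tra2b and went from 1.73 to 0.0017 for Srsf5. The Tra2b decay transcript had 28 and 22 reads, and the Tra2b interval already held 0 with both classes. After seeing the data, transcripts without reads in 1 library were left out, which gave 1.20 for Srsf5, and transcripts outside GENCODE M21 were counted as coding, which gave 0.60 for Clk1 and left 2 members at 2-fold. The number was also 2 with a mean of at least 100 in each class. Of 20 gene ratios of members with another choice of transcripts (protein-coding alone, or that of highest mean) 11 moved beyond their interval or reversed. The 9 of 23 retained-intron transcripts at 2-fold were 4 of 9 at a minimum mean of 100 (6.66% of all such transcripts) and 16 of 23 at 1.5-fold (26.1% of all). The 4 related genes were 2 with protein-coding transcripts alone. Over all genes 668 were 2-fold higher, 1992 without a filter, 139 at a minimum mean of 100, 412 with protein-coding transcripts alone, 1577 at 1.5-fold and 113 at 4-fold. The cause of these differences was not tested.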
